A study of Rattus norvegicus with 24 samples.

Results

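The genes described here are 42 lysosomal genes of the rat: soluble enzymes, membrane proteins and lipid carriers of the lysosome, subunits of its proton pump, and the regulator Tfeb. They were given as a list of gene symbols in 6 roles, and all 42 were found among the 32489 gene IDs of the expression table. All 42 were also tested, since each reached 0.5 FPKM in 6 or more libraries. FPKM is fragments per kilobase of transcript and per mega (M) of fragments. Poly-A selected RNA of the lungs of male Wistar rats, 5 to 6 weeks old and 170 to 190 g in weight, was sequenced. The animals received silica particles at 200 mg/mL, or normal saline, by instillation into the trachea. Lungs were taken at day 14 or day 28, which gives silica day 14, saline day 14, silica day 28 and saline day 28 lungs with 6 libraries each. Each library comes from whole lung, so that fewer cells of a type and less RNA per cell cannot be told apart.

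Lysosomes are acidic compartments in which proteins, glycans, nucleic acids and lipids are broken down. The V-ATPase pumps protons into them, cathepsins and other hydrolases work at the resulting low pH, and membrane proteins such as Lamp1 and Lamp2 line the compartment. The transcription factor Tfeb switches on many lysosomal genes through a promoter element built around an E-box. In the lung, alveolar macrophages carry inhaled particles such as silica into their lysosomes, where crystalline silica can injure the membrane.

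Promoter sequence was read from RefSeq on the GRCr8 rat assembly, as 250 bases before to 50 bases after the start of each gene, and 34 of the 42 genes had an entry. The E-box CACGTG was in the promoter of 7 of these 34 genes (20.6%), namely Atp6v0d1, Cd63, Ctsd, Gaa, Glb1, Lamp1 and Mcoln1, against 9.39% of the tested genes with an entry and 7.08% of all genes with one. Flanked by T and A, as TCACGTGA, it was in 4 of the 34 (11.8%), against 1.59% of the tested genes and 0.896% of all genes. The longer GTCACGTGAC was in 0 of the 34, against 0.492% of the tested genes and 0.28% of all genes. All 3 words read the same on both strands and overlap, since each longer one holds the E-box, and a match describes the letters only. The 4 windows with TCACGTGA are printed 5′ to 3′ because that word holds the E-box core of the Tfeb element, with the word in capitals. Whether Tfeb binds them was not tested. They lie at chr19:50357254-50357341 on the minus strand for Atp6v0d1, chr1:206968785-206968872 on the minus strand for Ctsd, chr16:83075055-83075169 on the minus strand for Lamp1 and chr12:6358221-6358307 on the plus strand for Mcoln1.
Atp6v0d1: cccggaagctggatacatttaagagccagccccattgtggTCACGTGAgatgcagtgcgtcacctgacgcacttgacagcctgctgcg
Ctsd: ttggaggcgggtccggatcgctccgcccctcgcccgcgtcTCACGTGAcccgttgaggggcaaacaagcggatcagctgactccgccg
Lamp1: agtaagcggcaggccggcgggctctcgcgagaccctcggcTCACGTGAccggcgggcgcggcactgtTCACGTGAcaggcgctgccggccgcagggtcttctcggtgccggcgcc
Mcoln1: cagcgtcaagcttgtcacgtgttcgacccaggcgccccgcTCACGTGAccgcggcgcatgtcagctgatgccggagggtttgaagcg
Lamp1 held 2 copies of the word and the other genes 1. The centre of the first copy lay 62 bases before the gene start in Lamp1, 49 before it in Atp6v0d1 and 7 before it in Ctsd, and 7 bases after it in Mcoln1.

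Recovered depth was 55.1 to 84.6 M reads per library. The alveolar type 2 markers, which define the lung's surfactant-making cells, summed to between 14800 and 31700 FPKM over the libraries, so the defining markers of lung were present in each. Mitochondrial genes took 2.17% ± 0.200 of reads in silica day 14 lungs and 2.50% ± 0.652 in saline day 14 lungs (SD, n = 6 each; exact permutation p = 0.26, two-sided). The percent was 2.66% ± 0.686 in silica day 28 lungs and 5.29% ± 2.143 in saline day 28 lungs (SD, n = 6 each; exact permutation p = 0.00649). In saline day 28 replicates 1, 2 and 6 it was 8.58%, 5.28% and 6.91%, and in replicates 3, 4 and 5 it was 4.31%, 2.68% and 3.99%. The counts of called genes that use saline day 28 lungs are therefore given with and without replicates 1, 2 and 6, a division that was added once the values were known. Sums of reads, medians and members that were not called are given with all 6 libraries.

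The levels of the 42 genes spanned from about 1000 FPKM down to about 1 FPKM. The aspartic protease Ctsd and the cysteine protease Ctsb stood at the top. Ctsb, which also trims other proteins outside the lysosome, averaged 1048 ± 104 FPKM in silica day 14 lungs, 932 ± 54.7 in saline day 14 lungs, 995 ± 126 in silica day 28 lungs and 1052 ± 159 in saline day 28 lungs (SD, n = 6). Ctsb, Ctsd and Psap, the precursor of the saposins that help sphingolipid hydrolases, overlapped between neighbours in this order in all 4 groups. At the low end were Mcoln1, a calcium channel of the lysosomal membrane, and Atp6v0d2, the form of the pump's d subunit best known from osteoclasts and macrophages. Atp6v0d2 had 0.0655, 0.555 and 1.45 FPKM as lowest, median and highest value in silica day 14 lungs, against 0.11, 0.196 and 1.42 in saline day 14 lungs. At day 28 it had 0.118, 0.811 and 1.85 FPKM in silica lungs, against 0.334, 1.32 and 1.51 in saline lungs. Its widely expressed paralog Atp6v0d1, named for its promoter after values had been seen, averaged 107 ± 12.2, 96.7 ± 5.96, 95.2 ± 8.19 and 105 ± 3.57 FPKM in the silica day 14, saline day 14, silica day 28 and saline day 28 lungs. The V-ATPase d subunit transcript of these lungs was thus mostly Atp6v0d1 on the per-length scale.

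**Figure D1:**
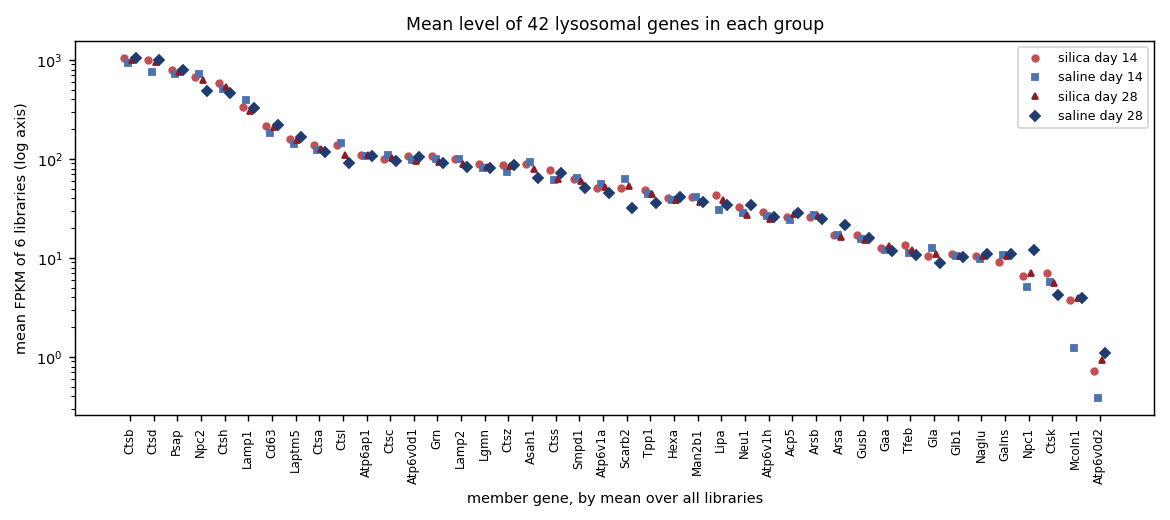
Mean FPKM of 6 libraries for each of the 42 lysosomal genes (log axis) in the 4 groups, ordered by the mean over all libraries. Ctsb, Ctsd and Psap head the order and Atp6v0d2 ends it, and the group means of most genes lie close together, with Npc1, Mcoln1 and Atp6v0d2 spread the most at the low end.

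Lamp1 and Mcoln1 varied within groups more than nearly all other genes, and their values have to be read with those of the gene next to each. Lamp1, a heavily glycosylated protein of the lysosomal membrane, had 15.2, 464 and 532 FPKM as lowest, median and highest value in silica day 14 lungs, against 270, 430 and 495 in saline day 14 lungs. At day 28 Lamp1 had 3.35, 312 and 468 FPKM in silica lungs, against 7.51, 406 and 435 in saline lungs. In 4 libraries Lamp1 was far below the others, namely silica day 14 replicates 1 (22.7 FPKM) and 5 (15.2), silica day 28 replicate 1 (3.35) and saline day 28 replicate 6 (7.51). The spread of its log2 values within groups was at the 99.9th percentile of all tested genes, and that of Mcoln1 at the 98.6th.

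In RefSeq on GRCr8, Cul4a, a ubiquitin ligase scaffold, is the next gene to Lamp1 on the same strand, and Pnpla6, a phospholipase, is next to Mcoln1 on the same strand. In the 4 libraries with little Lamp1, Cul4a was high. Silica day 28 replicate 1 had 4.03 reads per M on Lamp1 and 654 on Cul4a, while silica day 28 replicate 4 had 562 on Lamp1 and 95.9 on Cul4a. Over the 24 libraries, with group means removed, the log2 values of Lamp1 and Cul4a correlated at r = -0.93 (Spearman rho -0.835), and those of Mcoln1 and Pnpla6 at r = -0.802 (rho -0.777). Of the 83 pairs of a lysosomal gene and a neighbour, no other pair had an r below -0.66. The highest r was that of Arsa and Shank3, 0.793 (rho 0.65). The points share the libraries and their scaling, and these values are a description. Whether reads of a pair were assigned to either gene at the counting step was not tested, and the level of Lamp1 or Mcoln1 alone is uncertain here.

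The sum of reads per M over each pair varied much less. Lamp1 plus Cul4a came to between 436 and 745 reads per M in all 24 libraries. It averaged 697 ± 46.6 in silica day 14 lungs and 583 ± 111 in saline day 14 lungs (SD, n = 6 each; two-sided exact permutation p = 0.0346, adjusted p = 0.0692 over 4 such tests). At day 28 the sum averaged 572 ± 86.3 in silica lungs and 546 ± 69.0 in saline lungs (SD, n = 6 each; exact permutation p = 0.574, adjusted p = 0.576). The ranges of the Lamp1 pair overlapped at both days.

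Mcoln1 alone had 0.00696, 2.62 and 12.5 FPKM as lowest, median and highest value in silica day 14 lungs, against 0.00568, 0.252 and 6.26 in saline day 14 lungs. At day 28 it had 1.19, 2.83 and 10.4 FPKM in silica lungs, against 0, 3.62 and 8.91 in saline lungs. Mcoln1 plus Pnpla6 came to 57.7 to 69.0 reads per M in silica day 14 lungs. In saline day 14 lungs the sum came to 50.2 to 57.0, with no overlap, beside 5.0% of all tested genes by FPKM. The means were 63.1 ± 4.71 and 53.2 ± 2.31 (SD, n = 6 each; exact permutation p = 0.00216, the smallest that 6 against 6 animals can give, adjusted p = 0.00864). Most of these reads lay on Pnpla6, and the sum does not say which of the genes differed. At day 28 the sums averaged 58.5 ± 4.64 in silica lungs and 61.4 ± 8.78 in saline lungs and overlapped (SD, n = 6 each; exact permutation p = 0.576, adjusted p = 0.576). These sums were formed after the values had been seen, for the pairs with the lowest r of the 83. Their adjusted p cover these sums only, not all 20856 tested genes, and cannot be compared with the other adjusted p here.

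**Figure D2:**
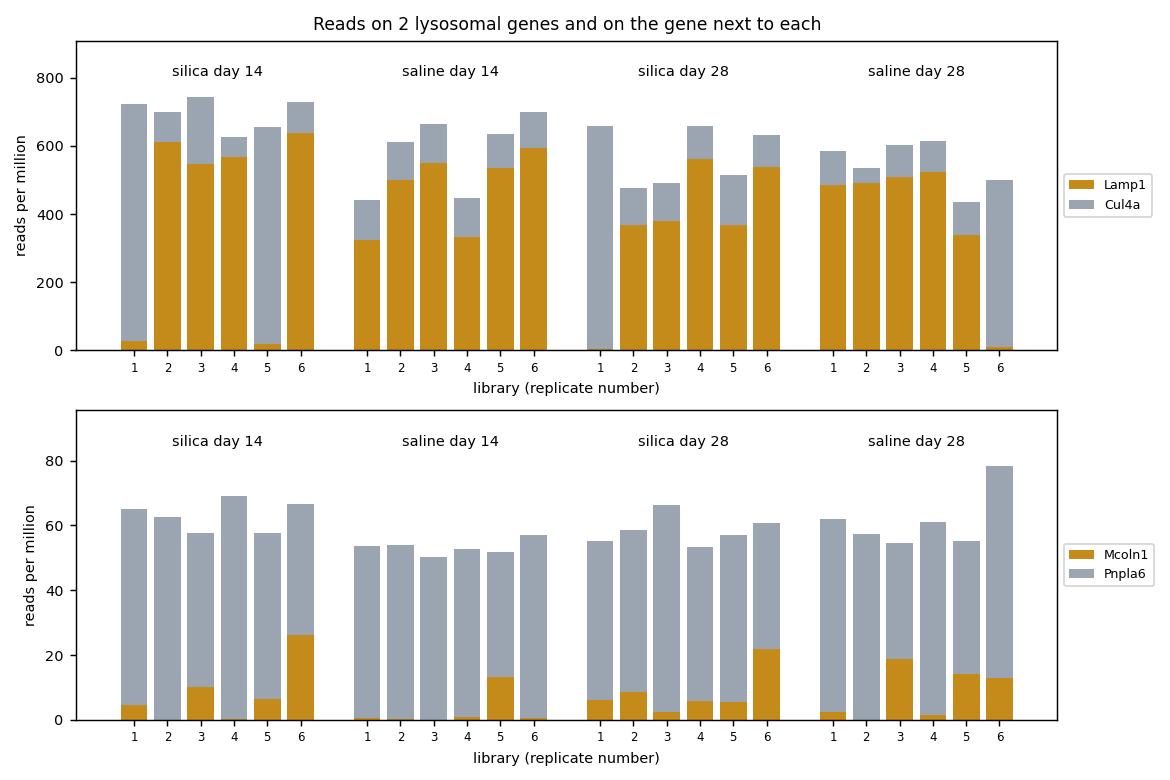
Recovered reads per M on Lamp1 and Cul4a (upper panel) and on Mcoln1 and Pnpla6 (lower panel), stacked, for each of the 24 libraries by group and replicate number. Where the Lamp1 bar is nearly gone, in silica day 14 replicates 1 and 5, silica day 28 replicate 1 and saline day 28 replicate 6, the Cul4a bar fills the stack, so that the total stays between 436 and 745 reads per M.

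At day 14, 0 of the 42 lysosomal genes were called between silica and saline lungs. The test was limma-trend on log2(FPKM + 1), a call is an adjusted p under 0.05 (Benjamini-Hochberg, over all 20856 tested genes), and 4.37% of all tested genes were called. Without adjustment 4 of the 42 had a p under 0.05, and limma-voom on the recovered reads also called 0. The log2 changes leaned upward: 30 of 42 were above 0 with a median of 0.12, beside 49.6% of all tested genes and a median of -0.00227. On this scale the change of a gene with few FPKM is understated. For 32 of the 42 the 95% confidence interval of the change lay within 1.5-fold in either direction and for 34 its upper bound was under a 1.5-fold rise. The FPKM of silica and saline lungs overlapped in all 42 members at day 14, while 5.0% of all tested genes had no overlap. In the authors' deposited table, Ctsa, the protective protein of Neu1 and Glb1, was the member with an FDR under 0.05 at day 14 (log2 fold change 0.17, FDR 0.0192), where 11.1% of all genes with an FDR passed.

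**Figure D3:**
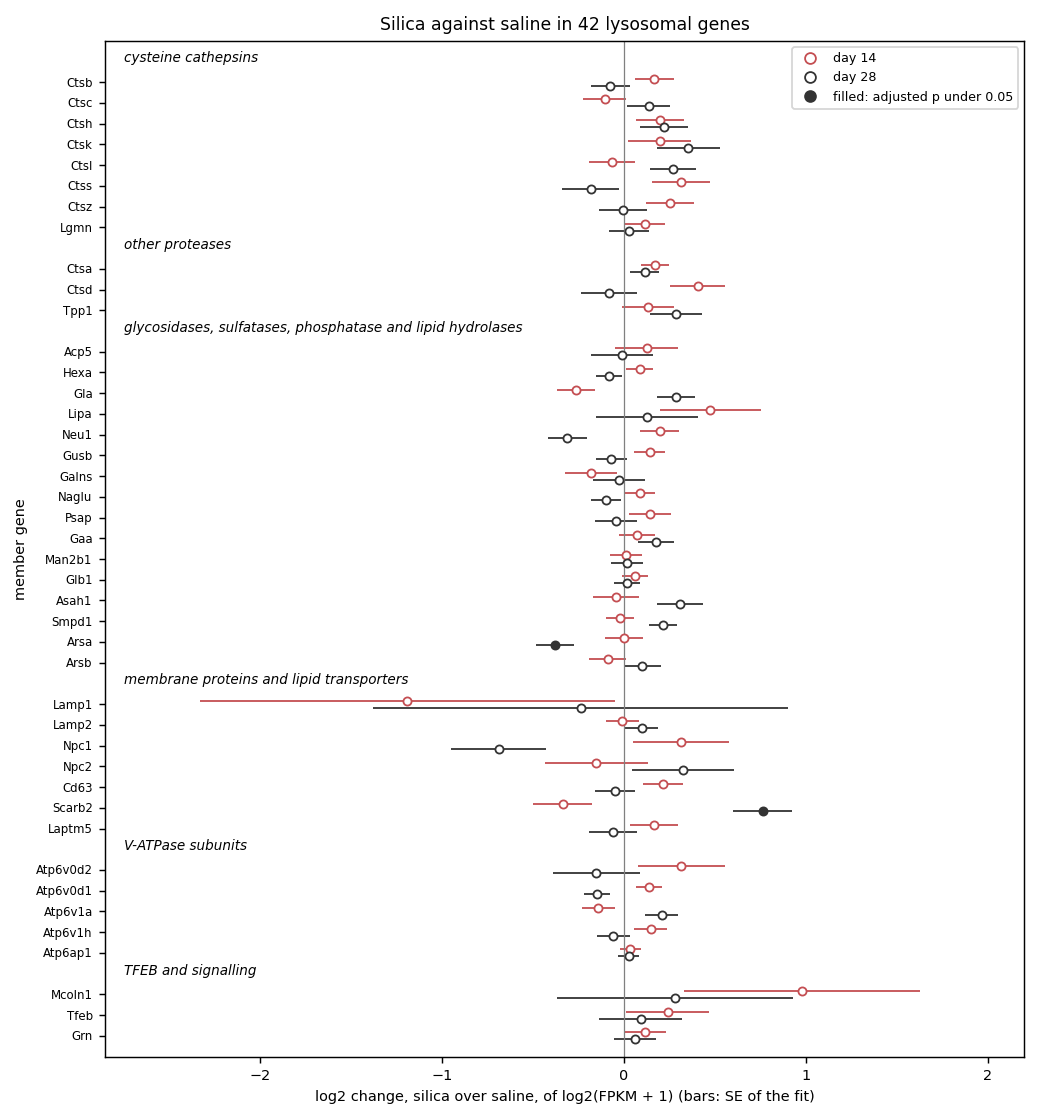
Log2 change of log2(FPKM + 1), silica over saline, for the 42 lysosomal genes by role at day 14 (red) and day 28 (black), with the standard error of the fit as bars and filled points for an adjusted p under 0.05. At day 14 no point is filled, and at day 28 Scarb2 on the right and Arsa on the left are filled, while Lamp1 and Mcoln1 have the widest bars.

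Among the proteases at day 14, the 8 cysteine cathepsins and relatives had changes between -0.11 and 0.31, with 6 above 0. Ctss, a cathepsin of antigen-presenting cells, had 59.2, 72.1 and 105 FPKM as lowest, median and highest value in silica lungs, against 49.5, 57.6 and 77.8 in saline lungs. Its groups overlapped, and the log2 change was 0.31 (SE 0.158, adjusted p = 0.27, limma). Ctsd had the smallest p of all members at day 14. It had 773, 955 and 1273 FPKM in silica lungs, against 573, 769 and 866 in saline lungs. The upper values of silica lungs lay above all saline lungs, but the ranges overlapped, and the log2 change of 0.40 (SE 0.153) had an adjusted p of 0.13. Tpp1, a lysosomal tripeptidyl peptidase, had 35.5, 52.1 and 53.7 FPKM in silica lungs, against 33.6, 45.4 and 52.2 in saline lungs, with a log2 change of 0.13 (SE 0.142, adjusted p = 0.651).

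The 16 glycosidases, sulfatases, phosphatase and lipid hydrolases had day 14 changes between -0.26 and 0.47, with 11 above 0. Lipa, the acid lipase that frees cholesterol and fatty acids from lipoproteins, had 21.1, 47.4 and 65.9 FPKM in silica lungs, against 19.8, 26.3 and 53.1 in saline lungs. Its spread within groups was at the 88th percentile of all genes, and the log2 change of 0.47 (SE 0.279) had an adjusted p of 0.353. Gla, which removes terminal galactose from glycolipids, lay on the other side of 0. It had 8.96, 10.4 and 11.6 FPKM in silica lungs, against 11, 12.5 and 14.5 in saline lungs, with overlap and a log2 change of -0.26 (SE 0.104, adjusted p = 0.147). The sulfatase Arsa averaged 16.9 ± 1.06 FPKM in silica lungs and 16.9 ± 1.20 FPKM in saline lungs (SD, n = 6 each). Psap, the most abundant of these genes, had 738, 774 and 864 FPKM in silica lungs, against 622, 678 and 871 in saline lungs (log2 change 0.14, SE 0.116, adjusted p = 0.525).

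Of the 7 membrane proteins and lipid transporters, 3 were above 0 at day 14, and Lamp1 had the largest change, -1.19 (SE 1.14, adjusted p = 0.607), on the unstable values given above. Lamp2, whose A form is the receptor of chaperone-mediated autophagy, had 89.0, 98.7 and 105 FPKM in silica lungs, against 86.4, 100.5 and 108 in saline lungs (log2 change -0.01, SE 0.0906, adjusted p = 0.964). Scarb2, also called LIMP-2, the receptor that carries beta-glucocerebrosidase to lysosomes, had 32.0, 54.5 and 60.9 FPKM in silica lungs, against 50.6, 64.8 and 70.6 in saline lungs. The ranges of Scarb2 overlapped at day 14, and its log2 change was -0.34 (SE 0.161, adjusted p = 0.238). With the mitochondrial percent as a covariate this became -0.40 with an adjusted p of 0.0454, the 1 member call at day 14 in any fit run here. Npc1 and Npc2, which pass cholesterol out of the lysosome, had changes of 0.31 (SE 0.262) and -0.15 (SE 0.282), and neither was called.

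None of the 5 pump subunits was called at day 14, and Atp6v0d2 had the largest change, 0.32 (SE 0.237, adjusted p = 0.491), on values that overlapped throughout. Atp6v1a, the subunit that splits ATP, had 43.2, 50.3 and 56.0 FPKM in silica lungs, against 50.3, 56.8 and 58.4 in saline lungs (log2 change -0.14, SE 0.0892, adjusted p = 0.393). Atp6ap1, an accessory subunit, was the steadiest member: it averaged 109 ± 5.76 FPKM in silica lungs and 107 ± 3.18 in saline lungs (SD, n = 6 each), and its 95% interval ran from -0.08 to 0.15 on the log2 scale. Tfeb itself had 7.21, 14.6 and 16.2 FPKM in silica lungs, against 7.19, 11.7 and 13.5 in saline lungs (log2 change 0.24, SE 0.228, adjusted p = 0.604). Grn, whose product progranulin is cut into granulins in the lysosome, had 97.9, 106 and 122 FPKM in silica lungs, against 85.9, 100.3 and 111 in saline lungs (log2 change 0.12, SE 0.115, adjusted p = 0.621).

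At day 28, 2 of the 42 genes were called between silica and saline lungs, Scarb2 higher and Arsa lower, where 13.8% of all tested genes were called (5.3% higher and 8.47% lower). The members' share was below that of all genes. The median change of the members was 0.022 with 23 of 42 above 0, beside -0.0292 and 46.3% above 0 over all tested genes. Scarb2 was also the 1 member whose silica and saline lungs did not overlap, beside 2.92% of all tested genes. In the authors' deposited table Scarb2 had a log2 fold change of 0.78 and an FDR of 0.00245 at day 28 and was the 1 member under 0.05, where 13.3% of all genes with an FDR passed. These calls depended on which saline day 28 libraries were used. Without replicates 1, 2 and 6 of that group, which have its highest mitochondrial percent, 0 of the 42 were called. In that fit, which has fewer saline libraries, 0.288% of all tested genes were called. Without replicates 3, 4 and 5 instead, 16 of the 42 were called, 14 higher and 2 lower. In that fit 6345 of the 20856 tested genes were called, 2523 higher and 3822 lower. Leaving out 1 library moved the count of called members to 1 without saline replicate 1 or 2 and to 3 without saline replicate 6. It was 5 without saline replicate 4, 6 without saline replicate 5, and 4 without silica replicate 1 or 6. Over all tested genes the calls were 1034 without saline replicate 1, 993 without replicate 2 and 2147 without replicate 6. They were 3191 and 4429 without saline replicates 4 and 5, and 2667 and 2846 without silica replicates 1 and 6. The part of the mitochondrial percent in these results was not tested.

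Scarb2 had 44.3, 53.9 and 61.7 FPKM as lowest, median and highest value in silica day 28 lungs, against 22.4, 29.6 and 43.8 in saline day 28 lungs. The silica lungs were all above the saline lungs, if only just. The log2 change was 0.76 (SE 0.161, adjusted p = 0.00815, limma), and it stayed called in each of the 12 fits that left out 1 day 28 library (adjusted p between 0.00162 and 0.0276). Within saline day 28 lungs the values were 22.4, 24.5 and 26.3 FPKM in replicates 1, 2 and 6 and 32.9, 42.7 and 43.8 FPKM in replicates 3, 4 and 5. Without replicates 1, 2 and 6 the change was 0.42 with an adjusted p of 0.306, and with the mitochondrial percent as a covariate it was 0.29 with an adjusted p of 0.493.

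Arsa, which removes sulfate from sulfatide lipids, had 12.5, 16.5 and 19.0 FPKM in silica day 28 lungs, against 16.7, 21.3 and 29.1 in saline day 28 lungs. Its ranges overlapped, and the 3 highest values were those of saline replicates 6, 2 and 1. The log2 change was -0.38 (SE 0.104, adjusted p = 0.0226). This call was lost without saline replicate 1 (-0.36, adjusted p = 0.0569) or saline replicate 2 (-0.36, adjusted p = 0.0596). It was also lost when the 2 day 28 groups were fitted alone (adjusted p = 0.105) and without replicates 1, 2 and 6 (-0.17, adjusted p = 0.478). In the authors' deposited table Arsa had a log2 fold change of -0.37 and an FDR of 0.0702.

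**Figure D4:**
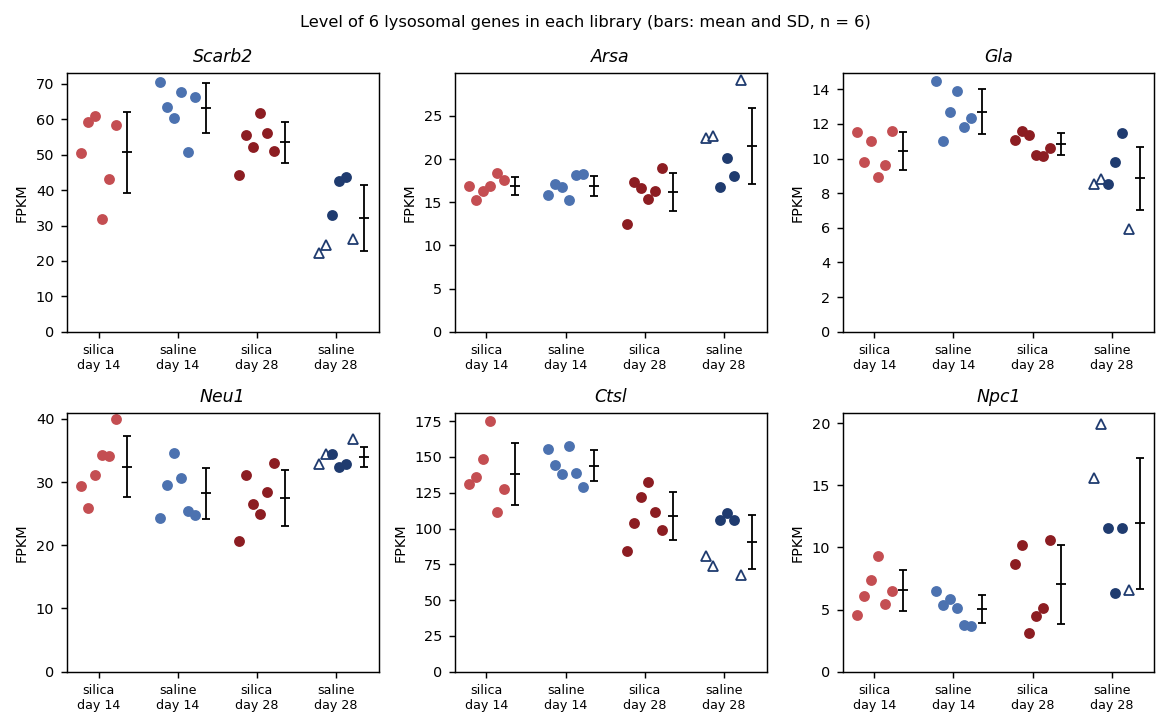
FPKM of 6 lysosomal genes in each library of the 4 groups, with the mean and SD over 6 libraries as bars and saline day 28 replicates 1, 2 and 6 as open triangles. In Scarb2 and Ctsl the triangles are the 3 lowest values of their group, and in Arsa they are the 3 highest.

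No other hydrolase was called at day 28. Neu1, the lysosomal sialidase, had 20.7, 27.4 and 33.1 FPKM in silica lungs, against 32.4, 33.6 and 36.8 in saline lungs. Most silica lungs lay below the saline lungs, and the log2 change was -0.31 (SE 0.108, adjusted p = 0.0565). Gla had 10.1, 10.8 and 11.6 FPKM in silica lungs, against 5.95, 8.68 and 11.5 in saline lungs (log2 change 0.28, SE 0.104, adjusted p = 0.0669). Asah1, the acid ceramidase, and Smpd1, the acid sphingomyelinase that makes its substrate, had log2 changes of 0.31 (SE 0.125, adjusted p = 0.1) and 0.21 (SE 0.0766, adjusted p = 0.0623). When libraries were rescaled by the median ratio, Gla (0.32, adjusted p = 0.0496) and Smpd1 (0.25, adjusted p = 0.0392) passed the threshold. With that scaling 4 members were called, where 2997 of the 20856 tested genes were.

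The cathepsins at day 28 had changes between -0.18 and 0.35. Ctsk, a collagen-cleaving cathepsin, had 4.44, 5.31 and 7.01 FPKM in silica lungs, against 3.14, 4.05 and 5.84 in saline lungs, with overlap and a log2 change of 0.35 (SE 0.173, adjusted p = 0.168). Ctsb had a change of -0.08 (SE 0.107) and Ctsd of -0.08 (SE 0.153), and neither was called. Ctsd had 726, 916 and 1293 FPKM in silica lungs, against 726, 1037 and 1199 in saline lungs, ranges that lay over each other. Tpp1 had 31.9, 45.8 and 52.7 FPKM in silica lungs, against 28.8, 34.7 and 44.4 in saline lungs (log2 change 0.28, SE 0.142, adjusted p = 0.175).

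Among the membrane proteins, Npc1 had the largest day 28 change that was not called. It had 3.10, 6.90 and 10.6 FPKM in silica lungs, against 6.37, 11.6 and 20.0 in saline lungs, with overlap and a log2 change of -0.69 (SE 0.262, adjusted p = 0.0785). Npc2, which hands cholesterol to Npc1, had 323, 620 and 1009 FPKM in silica lungs, against 330, 515 and 632 in saline lungs (log2 change 0.32, SE 0.282, adjusted p = 0.457). Lamp2 had a change of 0.10 (SE 0.0906, adjusted p = 0.485). The pump subunits stayed within -0.15 and 0.21, with Atp6v1a at 0.21 (SE 0.0892, adjusted p = 0.118), and Tfeb, Mcoln1 and Grn had adjusted p between 0.76 and 0.82.

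**Figure D5:**
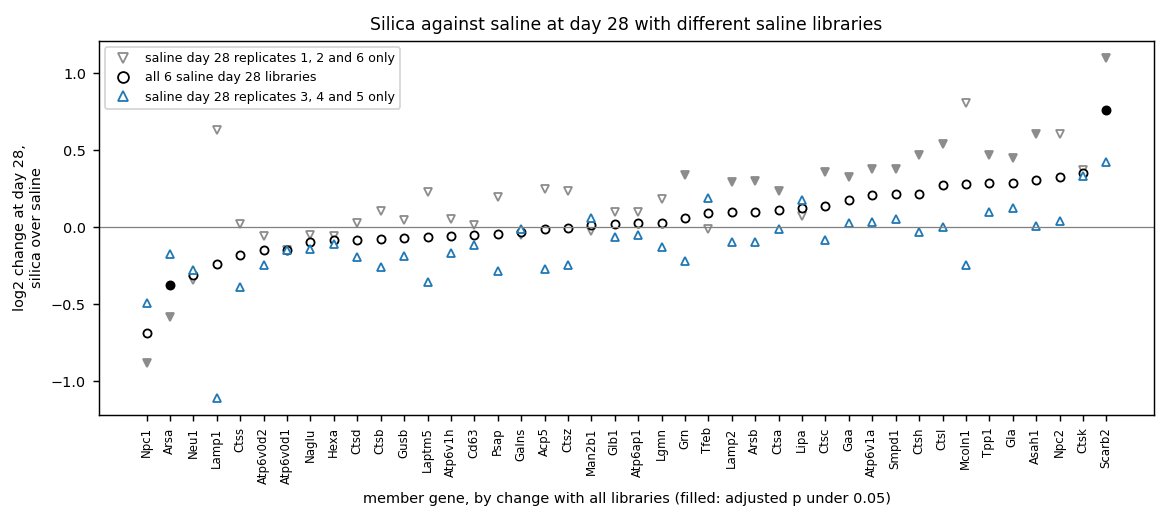
Log2 change of log2(FPKM + 1) at day 28, silica over saline, for each lysosomal gene with all 6 saline libraries (circles), with saline replicates 1, 2 and 6 only (grey triangles pointing down) and with saline replicates 3, 4 and 5 only (blue triangles pointing up). Filled symbols have an adjusted p under 0.05: 16 with replicates 1, 2 and 6 only, 2 with all libraries and 0 with replicates 3, 4 and 5 only. Over all 20856 tested genes the calls were 6345, 2872 and 60 in the same order.

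The silica effect differed between the days for 3 of the 42 genes, where 9.93% of all tested genes were called in this difference (day 28 effect minus day 14 effect). Scarb2 had the largest called difference, 1.10 (SE 0.228, adjusted p = 0.0113), from an effect of 0.76 at day 28 and -0.34 at day 14. Gla had a difference of 0.55 (SE 0.146, adjusted p = 0.025), from 0.28 at day 28 and -0.26 at day 14. Neu1 had a difference of -0.51 (SE 0.152, adjusted p = 0.04), from -0.31 at day 28 and 0.20 at day 14. The effects at the 2 days use separate animals, so each difference rests on all 24 libraries. Without saline day 28 replicates 1, 2 and 6, 0 of the 42 were called in the difference and 0.0384% of all tested genes were. Leaving out saline day 28 replicate 4 alone raised the count to 5, where 2454 of all tested genes were called. The Neu1 call was lost in 12 of the 24 fits that left out 1 library (adjusted p up to 0.0716). These were the fits without saline day 14 replicate 1, 2 or 6, saline day 28 replicate 1, 2 or 6, silica day 14 replicate 4, 5 or 6, or silica day 28 replicate 1, 3 or 4.

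Between silica day 28 and silica day 14 lungs, 0 of the 42 genes were called, as was 1 of all tested genes (0.00479%). Here 4 members had an unadjusted p under 0.05, and limma-voom called 0. Of the 42 changes 12 were above 0 with a median of -0.0695, beside 49.9% and -0.00087 over all tested genes. The lowest adjusted p was that of Ctsl, 0.453. Ctsl had 84.6, 108 and 132 FPKM in silica day 28 lungs, against 112, 134 and 175 in silica day 14 lungs, with overlap and a log2 change of -0.34 (SE 0.127). In the authors' deposited table, whose comparison runs day 14 over day 28, no member had an FDR under 0.05, where 0.642% of all genes with an FDR did.

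More members, and also more of all tested genes, were called between the saline groups than between silica and saline lungs at either day. Between saline day 28 and saline day 14 lungs 9 of the 42 genes were called, 7 lower and 2 higher, where 25.2% of all tested genes were called (11.1% lower and 14.1% higher). The lowest called changes were those of Scarb2, -0.996 (SE 0.161, adjusted p = 0.000547), and Ctsl, -0.68 (SE 0.127, adjusted p = 0.00144). The lipid enzymes Asah1 (-0.54), Gla (-0.49) and Smpd1 (-0.33) were also lower, as were Atp6v1a (-0.30) and Lamp2 (-0.28). Npc1 rose by 1.01 (SE 0.262, adjusted p = 0.0085) and Arsa by 0.31 (SE 0.104, adjusted p = 0.0305). Without saline day 28 replicates 1, 2 and 6, only Scarb2 of the 42 was called, and 1.73% of all tested genes were. The Arsa call was lost in 5 of 12 fits that left out 1 library (saline day 14 replicate 1 or 4, saline day 28 replicate 1, 2 or 6) and that of Lamp2 in 6 (saline day 14 replicate 1, 4 or 6, saline day 28 replicate 1, 2 or 6), with adjusted p up to 0.0785 and 0.082. Cell type markers moved between the saline groups as well. The 5 fibroblast markers summed to 601 to 921 FPKM in saline day 28 lungs and 1540 to 2130 in saline day 14 lungs, with no overlap, and 3 of 5, Col1a1, Col1a2 and Col3a1, were called lower, also without replicates 1, 2 and 6. Lower calls were also made for 3 of 4 endothelial, 2 of 5 alveolar type 1, 2 of 9 recruited macrophage, 1 of 4 neutrophil and 1 of 6 osteoclast markers, with 1 osteoclast marker called higher, and none of these remained called without replicates 1, 2 and 6. The part of these cell types in the saline values was not tested. The day 28 effects, the differences and these changes share the saline day 28 libraries.

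The members without overlap between the saline groups were Ctsl, Smpd1 and Scarb2, beside 8.46% of all tested genes. Ctsl had 67.8, 93.2 and 110 FPKM in saline day 28 lungs, against 129, 142 and 158 in saline day 14 lungs, and saline day 28 replicates 1, 2 and 6 made up the lowest 3. Smpd1 had 44.2, 50.9 and 59.0 FPKM in saline day 28 lungs, against 62.0, 63.9 and 68.2 in saline day 14 lungs. Asah1 had 49.5 to 52.8 FPKM in saline day 28 replicates 1, 2 and 6 and 67.0 to 85.6 in replicates 3, 4 and 5, against 75.4, 94.4 and 99.7 in saline day 14 lungs as lowest, median and highest value. Npc1 had 6.37, 11.6 and 20.0 FPKM in saline day 28 lungs, against 3.70, 5.24 and 6.51 in saline day 14 lungs, which overlapped in part.

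Other genes of the pathway, which are not among the 42, were read from 7 lists. Beside each list, 4.37% of all tested genes were called at day 14 and 13.8% at day 28. Of 30 other lysosomal hydrolases tested, 0 were called at day 14 (3 at an unadjusted p under 0.05, 0 by limma-voom). At day 28 4 were called, where 13.8% of all tested genes were, among them Plbd2 (0.33, adjusted p = 0.0161) and Fuca2 (0.35, adjusted p = 0.0484), which rose, and Ppt2 (-0.34, adjusted p = 0.037), which fell. By limma-voom 2 of the 4 were called, and Fuca2 (adjusted p = 0.0516) and Ppt2 (adjusted p = 0.0525) were not. Plbd2 is a phospholipase B-like protein, Fuca2 a fucosidase and Ppt2 a thioesterase. Of 24 other membrane proteins, Slc11a1, the metal transporter NRAMP1 of macrophage phagosomes, rose at day 14 by 0.71 (SE 0.131, adjusted p = 0.00194). Its mean was 22.5 FPKM in silica day 14 lungs and 13.3 FPKM in saline day 14 lungs. The silica effect on Slc11a1 was lower at day 28 than at day 14 (-0.99, adjusted p = 0.00907), where 9.93% of all tested genes were called in this difference. Without saline day 28 replicates 1, 2 and 6 that difference was not called (adjusted p = 0.0795). Slc11a1 was also higher in saline day 28 than in saline day 14 lungs (0.65, adjusted p = 0.00216), where 25.2% of all tested genes were called. Without those replicates this change of Slc11a1 was not called (0.56, adjusted p = 0.0786). The 1 membrane protein called at day 28 was Tpcn2, an endolysosomal cation channel, at -0.70 (SE 0.166, adjusted p = 0.0131).

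Of the 15 other V-ATPase subunits tested, 13 had a change above 0 at day 14 with a median of 0.167. None was called at day 14 (6 at an unadjusted p under 0.05, 0 by limma-voom). Over all tested genes 49.6% were above 0 at day 14 and 46.3% at day 28. At day 28 3 of the 15 were above 0, with a median of -0.106, and Atp6v0b (-0.33, adjusted p = 0.0296) and Atp6v1c1 (-0.21, adjusted p = 0.0374) fell, the second of which was not called by limma-voom (adjusted p = 0.054). Atp6v0b, part of the pump's rotating ring, averaged 77.5 FPKM in silica day 14 lungs and 65.4 in saline day 14 lungs, and 72.4 in silica day 28 lungs and 91.3 in saline day 28 lungs. The silica effect on Atp6v0b (-0.56, adjusted p = 0.0192) and on Tcirg1, the osteoclast and lysosome form of the pump's a subunit (-0.69, adjusted p = 0.023), was lower at day 28 than at day 14. Neither difference was called without saline day 28 replicates 1, 2 and 6 (adjusted p = 0.14 and 0.144).

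Among 13 delivery genes, 1 was called at each day. Nagpa, which uncovers the mannose 6-phosphate tag, rose at day 14 (0.42, adjusted p = 0.00407). Vps41, a subunit of the HOPS tether, rose at day 28 (0.35, adjusted p = 0.0233). Both were called in the difference of silica effects, Nagpa at -0.50 (adjusted p = 0.0192) and Vps41 at 0.50 (adjusted p = 0.0264). Nagpa was also higher in saline day 28 than in saline day 14 lungs (0.41, adjusted p = 0.00268), and Vps41 lower (-0.57, adjusted p = 0.000756). Both of these saline changes stayed called without saline day 28 replicates 1, 2 and 6 (adjusted p = 0.0462 and 0.0375). Of 16 relatives of Tfeb and nutrient sensors, 0 were called at either day (5 and 3 at an unadjusted p under 0.05 at day 14 and day 28, 0 by limma-voom at both). As an example, Tfe3, a relative of Tfeb, had changes of 0.08 at day 14 and -0.12 at day 28. Of 16 autophagy and damage-sensing genes, 2 were called at day 14, where 4.37% of all tested genes were. They were Map1lc3a (0.73, adjusted p = 0.00228) and Gabarapl1 (0.36, adjusted p = 0.00596), which coat autophagosomes, and both rose. The silica effect on Map1lc3a was lower at day 28 than at day 14 (-0.88, adjusted p = 0.0139). Map1lc3a was also higher in saline day 28 than in saline day 14 lungs (0.51, adjusted p = 0.011). That saline change was not called without saline day 28 replicates 1, 2 and 6 (adjusted p = 0.135). Of the 16, 2 were called higher and 1 lower at day 28, where 13.8% of all tested genes were called. At day 28 Map1lc3b (0.27, adjusted p = 0.0101) and the cargo receptor Sqstm1 (0.25, adjusted p = 0.0463) rose and Becn1 (-0.22, adjusted p = 0.0462), a core of the autophagy lipid kinase, fell; limma-voom did not call Becn1 (adjusted p = 0.0587). Of 5 cathepsin inhibitors 0 were called (2 and 1 at an unadjusted p under 0.05 at day 14 and day 28, 0 by limma-voom at both). Cst3, or cystatin C, averaged 900 FPKM in silica day 14 lungs and 702 in saline day 14 lungs (log2 change 0.34, adjusted p = 0.126). Without saline day 28 replicates 1, 2 and 6, no gene of these 7 lists was called by limma-trend at day 28 or in the difference of silica effects.

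Cell type markers were read beside these results. The 8 measured alveolar macrophage markers summed to 184 to 283 FPKM in silica day 14 lungs and 187 to 245 in saline day 14 lungs, and to 158 to 245 in silica day 28 lungs and 139 to 233 in saline day 28 lungs. None of the 8 was called by limma-trend at either day. The 9 markers of recruited macrophages and monocytes summed to 370 to 619 FPKM in silica day 14 lungs and 284 to 425 in saline day 14 lungs. At day 28 they summed to 298 to 625 FPKM in silica lungs and 255 to 614 in saline lungs, and 1 of 9, Csf1r, was called (0.56, adjusted p = 0.0495), but not by limma-voom (adjusted p = 0.0516). The 5 fibroblast markers summed to 1190 to 1900 FPKM in silica day 14 lungs and 1540 to 2130 in saline day 14 lungs, and 1 of 5, Col1a1, was called, lower (-0.50, adjusted p = 0.0203). At day 28 they summed to 1020 to 1400 FPKM in silica lungs and 601 to 921 in saline lungs, and 2 of 5, Col3a1 (0.63, adjusted p = 0.0085) and Col1a1 (0.42, adjusted p = 0.028), were called, both higher. The 4 endothelial markers summed to 242 to 486 FPKM in silica day 28 lungs and 224 to 374 in saline day 28 lungs. All 4 were above 0, 3 had an unadjusted p under 0.05 and 0 were called. The 4 cardiac markers summed to 13.3 to 1910 FPKM in silica day 28 lungs and 19.2 to 61.1 in saline day 28 lungs. Their sums were 31.3 to 99.4 FPKM in silica day 14 lungs and 33.7 to 690 in saline day 14 lungs. Of the 4, 0 were called at either day, and 2 had an unadjusted p under 0.05 at day 28. The 7 osteoclast markers summed to 19.3 to 23.8 FPKM in silica day 28 lungs and 20.5 to 24.7 in saline day 28 lungs. Of the 6 tested, Oscar was called lower at day 28 (-0.64, adjusted p = 0.0179), and Calcr never passed 0.5 FPKM in any library. Of 5 alveolar type 1 markers, Aqp5 was called higher at day 28 (0.45, adjusted p = 0.0434). Without saline day 28 replicates 1, 2 and 6, 0 markers of any cell type were called at day 28. The part of these cell types in the lysosomal values was not tested.

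The genes most like Atp6v0d2 and Ctsd were taken as the 5 with the highest Pearson r of log2(FPKM + 1) over the 24 libraries after removing group means, among genes with a mean FPKM of at least 1. For Atp6v0d2 they were Coa4 (r = 0.734, Spearman rho 0.671), Spp1 (0.728, 0.582), Ccl9 (0.719, 0.657), Bcat1 (0.708, 0.586) and Hk3 (0.692, 0.666). For Ctsd they were Naaa (r = 0.919, rho 0.888), Gpnmb (0.868, 0.885), Arg1 (0.86, 0.859), Lgals3 (0.841, 0.877) and Hk3 (0.838, 0.872). Hk3 is in both lists. The r of the Ctsd list were higher than those of the Atp6v0d2 list, whose gene is near the floor of the measurement. The points share libraries and depth, and these values describe likeness only.

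Members with and without an E-box in the promoter were set side by side, with no test. The 7 genes with CACGTG had a median log2 change of 0.138 at day 14 with 6 above 0, and the 27 matched genes without it a median of 0.117 with 18 above 0. At day 28 the medians were -0.0511 with 3 of 7 above 0 and 0.0907 with 18 of 27 above 0. Over all tested genes 49.6% were above 0 at day 14 and 46.3% at day 28. Of the 4 genes whose windows are printed above, Ctsd and Atp6v0d1 had day 14 changes of 0.40 and 0.14 and day 28 changes of -0.08 and -0.15, none of them called, and Lamp1 and Mcoln1 have the uncertain values described with their neighbours.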

How the data were processed

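Lung RNA of 24 rats was read from 1 table of FPKM. The authors deposited FPKM per gene and library, and in a second table the same FPKM with, for 3 comparisons, columns of p-value and FDR beside a log2 fold change and its linear ratio (fold change). Which tool made those columns is not given in the sources used here. They are quoted only where the authors' deposited table is named, and their log2 direction was checked against the ratio of group means. The tools were HISAT2 2.1.0, HTSeq 0.9.1, FastQC 0.11.9 and cutadapt 4.0 on Rnor_6.0 and rn6, per the submitters' processing notes. Whether counting used strand is not given there.

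Low FPKM values moved in steps, from which whole reads were recovered for 100.0% of 31521 genes with a nonzero value (tolerance 0.02 read). They served for depth, for the percent on 13 mitochondrial genes, for the neighbour sums and for limma-voom, and not for the main test. FPKM were analysed as log2(FPKM + 1) with limma-trend (limma 3.58.1, R 4.3.3, two-sided) as 4 group means fitted jointly to 24 libraries, for the 20856 genes that reached 0.5 FPKM in 6 or more libraries. Calls are Benjamini-Hochberg adjusted p under 0.05 over all genes tested. Changes carry the standard error (SE) of the fit, levels the standard deviation (SD) over 6 libraries. Neighbours and promoters come from RefSeq tables of GRCr8, used with the files' Rnor_6.0 genes only by symbol. The other steps ran in Python 3.11.15 (scipy 1.17.1, matplotlib 3.10.9, pandas 2.3.3, numpy 2.4.6). The fit was also run on simulated data, and the outcome is not reported here. Genes were drawn independently there, with no shift shared across a library, so that run does not bear on the saline day 28 division.

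The members and lists were chosen with earlier results of these data known. Values are given for members called in any contrast. In each of 6 roles they are also given for the members with the largest change at each day and the highest level. FPKM are not printed for every group of each of these members. Atp6v0d1, Tfeb and the neighbour genes were added after values had been seen. From each further pathway list, up to 3 called genes per day are named, except 1 called hydrolase that is not reported here. Cell type markers are given as sums and counts, with those called at either day named after their values had been seen. Alternatives were a pseudocount of 0.1, no filter, median-ratio scaling, the mitochondrial percent as a covariate, only the groups compared, limma-voom, a replicate block, each library left out, and the saline day 28 divisions. Replicate numbers recur in the 4 groups but do not pair animals. The labels call the libraries biological replicates, 1 per column.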

Additional observations from a re-analysis of the deposited data

Results flagged for a closer look

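By the interaction term of limma, the silica effect differed between the days for Scarb2 (1.10), Gla (0.548) and Neu1 (-0.506). Each value is the day 28 effect minus the day 14 effect on the log2 scale. Of all tested genes 9.93% were called in this difference, and 0 of the 42 without saline day 28 replicates 1, 2 and 6. From day 14 to day 28 the silica groups changed by 0.10, 0.05 and -0.24 in the same order, none called. The saline groups changed by -0.996, -0.49 and 0.27, with Scarb2 and Gla called. In 13 of 96 groups of 6 libraries checked over 24 named genes, 1 library lay far from the other 5. For independent normal values the rule flags about 1 in 20 groups. These groups share the same 24 libraries and some genes were named for their values, so that rate cannot be set against the 13. Silica day 28 replicate 1 was the low library for Smpd1 (48.2 FPKM), Asah1 (58.2), Lamp2 (73.9), Atp6ap1 (94.3) and Lamp1 (3.35). That library also had the highest mitochondrial percent of its group, 4.01%, and its part in these values was not tested. Lamp1 was low in saline day 28 replicate 6 as well (7.51 FPKM). Mcoln1 was high in silica day 28 replicate 6 (10.4 FPKM) and in saline day 14 replicate 5 (6.26 FPKM). Further high libraries were silica day 14 replicate 6 for Ctsk (12.9 FPKM), silica day 14 replicate 5 for Npc2 (1380 FPKM), silica day 14 replicate 4 for Atp6v0d1 (130 FPKM) and saline day 14 replicate 4 for Atp6v0d2 (1.42 FPKM). A low library was saline day 14 replicate 5 for Asah1 (75.4 FPKM).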

How the results depend on the processing

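When the mitochondrial percent was made a covariate, 1437 genes were called at day 14 and 24 at day 28, 2 in the difference of silica effects, 2 between the silica groups and 34 between the saline groups. Of the members, that fit called 1 at day 14 and 0 at day 28, in the difference and between the saline groups, and the Lamp2 change between the saline groups reversed to 0.0221 (adjusted p = 0.923). Without saline day 28 replicates 1, 2 and 6, chosen after the data had been seen, 60 genes were called at day 28, 8 in the difference, 0 between the silica groups and 361 between the saline groups, with 0, 0 and 1 members at day 28, in the difference and between the saline groups. Without replicates 3, 4 and 5 of that group, 6345 genes were called at day 28 and 5237 in the difference. That fit called 0 genes between the silica groups and 7500 between the saline groups. Of the members it called 16 at day 28, 11 in the difference and 14 between the saline groups. Fitting only the groups compared called 580 genes and 1 member at day 28 and 0 genes between the silica groups; the difference was not refitted so, since it uses all groups. Median-ratio scaling called 2997 genes and 4 members at day 28. No filter and limma-voom each called 0 genes between the silica groups. The cause of these shifts was not tested.

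Same-numbered libraries did not vary together (36 pairs, mean r of deviations from group means -0.0234, from -0.296 to 0.127), and 2 of 24 libraries correlated best with their own number. With a replicate block 656 genes were called at day 14, 2084 at day 28 and 1227 in the difference. The block fit called 0 genes between the silica groups and 4732 between the saline groups. Neu1 missed the threshold in the difference (adjusted p = 0.0504). That block fit called 0, 2, 2 and 10 members at day 14, at day 28, in the difference and between the saline groups.

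Leaving out 1 library at a time gave 576 to 1073 genes at day 14, 993 to 4429 at day 28, 1062 to 3286 in the difference, 0 to 2 between the silica groups and 3682 to 6346 between the saline groups. The members called ranged from 0 to 0, 1 to 6, 2 to 5, 0 to 0 and 7 to 11 in the same order. Of 1848 member values under the other settings, 1781 kept their side of the threshold, 31 lost a call, 35 gained one and 1 reversed. Most of the 1848 had no call in the main fit to lose, so the 1781 do not show how stable the calls are. Intervals cover the spread between animals; at 0.0655 to 1.85 FPKM, Atp6v0d2 is limited by depth, and the levels of Lamp1 and Mcoln1 are uncertain, since they varied against those of their neighbours.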
